A study of Homo sapiens with 6 samples.

Results

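The genes described here are the nuclear genes that encode the subunits of the oxidative phosphorylation machinery. They were chosen by name from the deposited expression table, as symbols of the NDUF, SDH, UQCR, COX4 to COX8 and ATP5 series. The name patterns matched 143 of the 58735 genes in the table, and 56 of these were pseudogenes and were left out, which left 87 members. Of these, 38 belong to complex I, 4 to complex II, 9 to complex III, 16 to complex IV and 20 to ATP synthase. RNA-seq was performed on PANC-1, an established cell line from human pancreatic ductal adenocarcinoma, in 3 samples with control siRNA (si-NC) and 3 with siRNA against METTL16 (si-METTL16). METTL16 is an RNA methyltransferase that writes m6A on U6 snRNA and on the MAT2A transcript. Both groups share the line, its medium with fetal bovine serum and antibiotics, and a transfection. The deposited labels describe the transfection of the control samples as WT, while their titles name si-NC. The methods call the cells stably transfected, and neither the dose nor the time of siRNA exposure was stated in the sources used here. Sample titles carry the numbers 1 to 3 after si-METTL16, the supplementary primer list holds 3 siRNAs numbered in the same way, and whether the 3 samples received the same siRNA was not stated.

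Oxidative phosphorylation runs in the inner mitochondrial membrane. Complex I oxidizes NADH and complex II oxidizes succinate, both pass electrons through coenzyme Q to complex III, cytochrome c carries them to complex IV, and the proton gradient made on the way drives ATP synthase. All complexes except complex II combine nuclear subunits with subunits encoded by the mitochondrial genome, so the transcripts of a complex come from separate genomes and, within the nucleus, from genes scattered over many chromosomes. Pancreatic ductal adenocarcinoma cells are known for a high rate of glycolysis, and they also keep a working respiratory chain.

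The counts summed to between 15725298 and 18054436 per sample. METTL16 was at 96.3 ± 4.58 CPM (counts scaled to a common library total; SD, n = 3) in si-NC and at 34.5 ± 0.571 CPM in si-METTL16, a log2 fold change of -1.48, and the groups did not overlap. All 5 ductal epithelial markers on the list were detected, with a summed level that ranged from 3029 to 4102 CPM in si-NC and from 3253 to 3558 CPM in si-METTL16. Of these 5, 3 (KRT7, KRT19 and SOX9) were called lower and 0 higher, with a median log2 fold change of -0.25; their part in the results on the members was not tested. The 8 markers of other cell types summed to at most 0.651 CPM, and 3 of them were at 0 in all samples. In bulk RNA, fewer cells of a kind and less RNA per cell cannot be told apart. The spread between replicates corresponded to a biological coefficient of variation of 16.5%.

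The members changed in both directions, with more of them lower than higher after METTL16 silencing. Of the 87 members, 81 had enough counts to be tested. By the quasi-likelihood test of edgeR, adjusted by Benjamini-Hochberg over all 15089 genes tested, 33 members passed the threshold of 0.05, which is 40.7% of those tested against 35.9% of all genes. Higher expression in si-METTL16 was called for 11 members, or 13.6%, against 18.4% of all genes. Lower expression was called for 22 members, or 27.2%, against 17.5% of all genes. The groups did not overlap in CPM for 48 of the 81 members, or 59.3%, against 50.9% of all genes. All 33 called members were among these 48. The median log2 fold change of the members was -0.11, and that of all genes tested was -0.00. The share called in either direction was near that of all genes, while the share called lower was above it and the share called higher below it; these differences were not tested. Leaving out a sample lowered both shares and in 4 of 6 fits put the members under all genes: without si-NC replicate 3, 22.2% of members and 26.9% of all genes were called.

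The calls were spread over all 5 complexes. Complex I had 5 members higher and 7 lower of 38 tested, complex II had 1 higher and 2 lower of 4, and complex III had 2 higher and 2 lower of 9. Complex IV had 1 higher and 3 lower of 11 tested, and ATP synthase had 2 higher and 8 lower of 19. The share called in either direction was 31.6% in complex I, 75.0% in complex II and 44.4% in complex III. It was 36.4% in complex IV and 52.6% in ATP synthase, against 35.9% of all genes tested. The median log2 fold change was -0.05 in complex I, -0.18 in complex II, -0.06 in complex III, -0.18 in complex IV and -0.26 in ATP synthase. Every complex thus held members called in opposite directions, as did all genes tested, with 18.4% called higher and 17.5% lower. The members together took 0.929% ± 0.0195 (SD, n = 3) of all counts in si-NC and 0.864% ± 0.0240 in si-METTL16. The share was 0.910%, 0.949% and 0.929% in the 3 si-NC samples and 0.839%, 0.866% and 0.887% in the 3 si-METTL16 samples, so the highest si-METTL16 sample lay under the lowest si-NC sample.

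**Figure D1:**
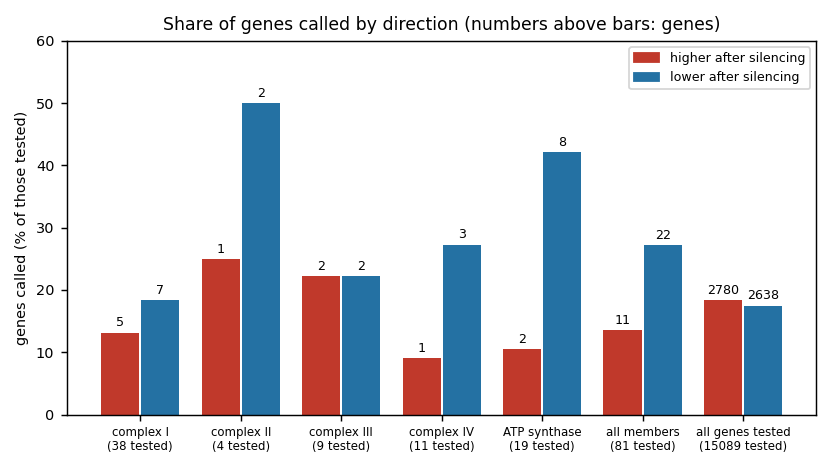
Share of the tested genes of each complex (vertical axis, percent of those tested) called higher (red) or lower (blue) in si-METTL16 than in si-NC, with the number of genes above each bar. ATP synthase had 2 members called higher and 8 lower of 19, whereas all genes tested split into 2780 higher and 2638 lower.

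A list of 12 catalytic or cofactor-binding subunits was written from general knowledge, but with earlier results of these data known. SDHA, SDHB, UQCRFS1, ATP5F1A and ATP5F1B are among them. Of the 12, 3 were called higher, 0 lower and 9 were not called. The called share was 25.0%, against 35.9% of all genes tested, of which 17.5% were called lower. Most of the 12 hold flavins or iron-sulfur clusters or form nucleotide sites, while NDUFS3 takes part in the matrix arm of complex I. The list leaves out SDHC and SDHD, which bind heme and coenzyme Q and were both called lower. It also leaves out subunits with zinc sites, of which COX5B was called lower and NDUFS6 higher. At an unadjusted p under 0.05 the same edgeR test counted 5 of the 12, against 46.3% of all genes tested. Of the other 69 members tested, 8 were called higher and 22 lower, or 43.5% in either direction. The median log2 fold change was -0.00 for the catalytic list and -0.16 for the other members. The difference between these lists was not tested.

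The figure of fold changes lists the tested members by complex, without a gene not reported here and without the read-through gene ATP5MF-PTCD1, whose interval lies outside its axis. Without the read-through gene, the log2 fold changes ran from -0.78 for NDUFB1 to 0.57 for ATP5PB.

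**Figure D2:**
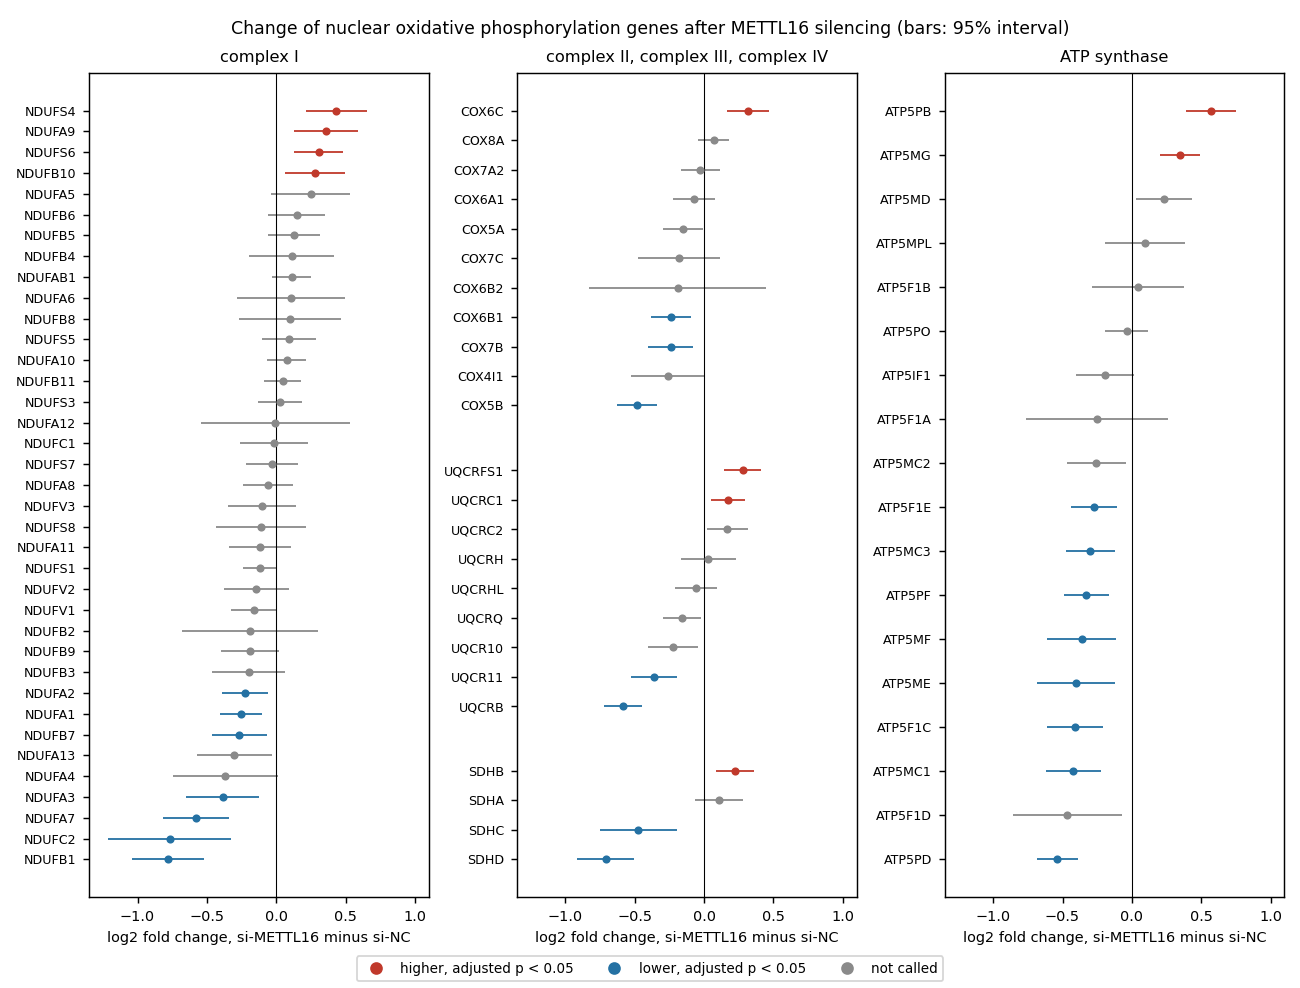
Log2 fold change of si-METTL16 minus si-NC (horizontal axis; points, with the 95% interval as bars) for 79 tested members, sorted within each complex, with calls at an adjusted p under 0.05 in color. Each of the 3 panels holds red points to the right of 0 and blue points to the left, and SDHB stands right of 0 while SDHC and SDHD stand left.

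Complex II, succinate dehydrogenase, is the only complex built from nuclear genes alone. It has a catalytic head of SDHA, the flavoprotein that oxidizes succinate, and SDHB, the iron-sulfur subunit, and a membrane anchor of SDHC and SDHD, which bind heme and coenzyme Q. SDHD (ENSG00000204370, chromosome 11 from 112086773 to 112120013 on GRCh38 in the deposited table) was at 133, 127 and 148 CPM in the si-NC samples, in order of replicate number as throughout, and at 91.0, 78.8 and 79.8 CPM in the si-METTL16 samples. All 3 si-METTL16 samples lay under all 3 si-NC samples, and the mean fell to 61.2% of the control level. The log2 fold change was -0.71 ± 0.09 (SE), with an adjusted p of 0.00111 by edgeR's quasi-likelihood test. SDHC (ENSG00000143252, chromosome 1 from 161314257 to 161375340) was at 166, 180 and 175 CPM in si-NC and at 104, 146 and 124 CPM in si-METTL16, again without overlap. Its log2 fold change was -0.47 ± 0.12, with an adjusted p of 0.0190. Both anchor genes were therefore lower. The SDHC call rested on the full set of samples, since the adjusted p was 0.0533 without si-NC replicate 2, 0.0579 without si-NC replicate 3 and 0.0570 without si-METTL16 replicate 3.

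The head subunits did not fall. SDHB (ENSG00000117118, chromosome 1 from 17018722 to 17054170) was at 146, 147 and 152 CPM in si-NC and at 165, 172 and 182 CPM in si-METTL16. The groups were apart, and the log2 fold change was 0.22 ± 0.06 with an adjusted p of 0.0225 by edgeR. That call held without si-METTL16 replicate 1 and was lost without any of the other 5 samples, with adjusted p from 0.0565 to 0.0737. SDHA (ENSG00000073578, chromosome 5 from 218241 to 256700) was at 103, 108 and 101 CPM in si-NC and at 103, 119 and 115 CPM in si-METTL16. Its groups overlapped, the 95% interval of its log2 fold change ran from -0.06 to 0.28, and it was not called. The raw counts of SDHC and SDHD together were 1.23 ± 0.0460 (SD, n = 3) times those of SDHA and SDHB in si-NC and 0.731 ± 0.0445 times in si-METTL16. This ratio is formed within each sample, so it does not depend on the scaling between libraries. It was formed after the fold changes were seen and is given as a description.

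SDHD and SDHA have several processed copies in the genome. Of the counts of a gene and its named pseudogenes together, the pseudogenes held 22.1% for SDHD and 10.7% for SDHA. With the counts of each gene and its copies summed, SDHD stayed called lower, with an adjusted p of 0.000530 by edgeR.

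The promoters of complex II genes are shown because neighbouring subunits of the same complex moved in opposite directions. The sequences are the 250 bases before the transcription start in RefSeq (GRCh38.p14), read 5′ to 3′ on the gene's strand, and no entry was matched for SDHC. Capitals mark matches on either strand to a motif known for NRF1 (GCGCANGCG, other strand CGCNTGCGC) or for ETS factors such as GABPA (CCGGAAG, other strand CTTCCGG), both regulators of respiratory chain genes. SDHA is on the plus strand at chr5:218070-218319, SDHB on the minus strand at chr1:17054033-17054282 and SDHD on the plus strand at chr11:112086623-112086872.
SDHA: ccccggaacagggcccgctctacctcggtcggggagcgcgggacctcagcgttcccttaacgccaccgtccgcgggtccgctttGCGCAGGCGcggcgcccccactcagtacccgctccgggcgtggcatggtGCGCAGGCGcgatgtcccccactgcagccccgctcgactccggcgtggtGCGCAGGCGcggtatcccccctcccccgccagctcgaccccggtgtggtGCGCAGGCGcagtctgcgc
SDHB: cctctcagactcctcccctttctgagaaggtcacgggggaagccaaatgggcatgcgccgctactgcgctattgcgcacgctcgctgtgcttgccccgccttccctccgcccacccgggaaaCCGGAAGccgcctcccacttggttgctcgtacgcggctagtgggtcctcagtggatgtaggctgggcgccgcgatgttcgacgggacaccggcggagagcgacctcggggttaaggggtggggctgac
SDHD: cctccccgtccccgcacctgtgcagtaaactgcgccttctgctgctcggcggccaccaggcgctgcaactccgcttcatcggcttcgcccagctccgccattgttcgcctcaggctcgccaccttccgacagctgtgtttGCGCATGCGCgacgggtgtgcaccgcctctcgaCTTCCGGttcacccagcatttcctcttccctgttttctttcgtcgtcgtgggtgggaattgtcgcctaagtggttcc
The SDHA promoter held 4 NRF1 matches, with first bases at -166, -117, -68 and -19 from the start. SDHB held 1 ETS match at -128, and SDHD held overlapping NRF1 matches at -110 and -109, on opposite strands, and an ETS match at -77. A member called lower and a member not called thus both carried the NRF1 letters.

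Promoters were matched for 69 of the 87 members. In the 300 bases from 250 before to 50 after the start, the NRF1 letters were found in 33.3% of the matched members and in 7.52% of all 35116 promoters. The ETS letters were found in 29.0% against 10.3%, and the letters of YY1 (AAGATGGCG, other strand CGCCATCTT) in 11.6% against 1.75%. At least 1 of the 3 motifs was present in 41 of the 69 members, or 59.4%, against 17.5% of all promoters. These sets are unlike: each member was given its first matched entry. The set of all promoters was not limited to tested genes or to a first entry per gene. The differences were not tested. Among the members called higher, 4 of 9 held NRF1, 2 held ETS and 4 held YY1. SDHB held 1 YY1 match, which does not lie within its 250 printed bases. Among those called lower, 6 of 17 held NRF1, 9 held ETS and 2 held YY1. Among the 40 matched members that were not called, 12 held NRF1, 9 held ETS and 2 held YY1. Members with each motif were found in both directions and among the members not called, in unlike shares. YY1 was in 44.4% of those called higher, 11.8% of those called lower and 5.0% of those not called. ETS was in 22.2%, 52.9% and 22.5%, and NRF1 in 44.4%, 35.3% and 30.0%, in the same order. These sets are small, and a relation of motif to direction was not tested.

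Complex I, NADH dehydrogenase, is the largest of the complexes. Its nuclear members comprise 7 subunits of the catalytic core and 31 accessory subunits by name, which surround the core and are needed for assembly and stability. The 31 include NDUFA4, which carries a complex I name but is found with complex IV; it was not called. In the accessory group, 4 were called higher, 7 lower and 20 were not called. The share called was 35.5%, near the 35.9% of all genes tested.

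Core subunits carry the flavin of the complex (NDUFV1) or its iron-sulfur clusters (NDUFV2, NDUFS1, NDUFS7 and NDUFS8) or take part in the matrix arm (NDUFS3). These 6 were not called by edgeR's quasi-likelihood test, and their log2 fold changes were -0.16 for NDUFV1, -0.14 for NDUFV2, -0.12 for NDUFS1, -0.11 for NDUFS8, -0.03 for NDUFS7 and 0.03 for NDUFS3. Without si-METTL16 replicate 2, NDUFV2 passed the threshold, with an adjusted p of 0.0430.

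Among the accessory subunits, NDUFB1 (ENSG00000183648, chromosome 14 from 92116122 to 92121917), a small membrane arm subunit, was at 44.6, 54.3 and 42.1 CPM in si-NC and at 27.8, 27.3 and 26.9 CPM in si-METTL16. The si-METTL16 samples lay close together and well under the control samples. The mean was 58.2% of the control, and the log2 fold change was -0.78 ± 0.11 with an adjusted p of 0.00183 by edgeR. NDUFC2, another membrane arm subunit, was at 137, 137 and 139 CPM in si-NC and at 86.0, 100 and 56.4 CPM in si-METTL16, with a log2 fold change of -0.77 ± 0.19. The si-METTL16 samples of NDUFC2 varied more than those of NDUFB1, and its adjusted p was 0.0177 with all samples and 0.0522 without si-NC replicate 3. NDUFC2 also shares exons with the read-through gene NDUFC2-KCTD14, and summing the counts of both gave an adjusted p of 0.00603. NDUFA7 was at 23.1, 23.6 and 26.6 CPM in si-NC and at 15.3, 16.3 and 17.4 CPM in si-METTL16, with a log2 fold change of -0.58 ± 0.10 and an adjusted p of 0.00483.

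NDUFA3 had a log2 fold change of -0.39 with an adjusted p of 0.0325 by edgeR, and held its call in only 1 of the 6 fits that leave out a sample, the one without si-NC replicate 3. It shares exon sequence with TFPT, and counting was not stated to use strand. NDUFA1, a small subunit at the membrane arm, had a log2 fold change of -0.25 and an adjusted p of 0.0194, lost without si-NC replicate 2 (0.0566), si-NC replicate 3 (0.0721) or si-METTL16 replicate 3 (0.0643).

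The accessory subunits called higher included NDUFS4, which is needed for late assembly of the matrix arm. It was at 55.3, 58.2 and 54.8 CPM in si-NC and at 71.2, 85.5 and 70.4 CPM in si-METTL16. The groups did not overlap, and the log2 fold change was 0.43 ± 0.09 with an adjusted p of 0.0104 by edgeR. NDUFA9, near the coenzyme Q site, was at a log2 fold change of 0.36 with adjusted p = 0.0273, and NDUFS6, which carries a zinc site, was at 0.31 with adjusted p = 0.0174. Both lost the call in most fits that leave out a sample. NDUFA9 kept it only without si-NC replicate 2, and NDUFS6 only without si-NC replicate 2 or si-METTL16 replicate 2. The highest adjusted p in these fits was 0.0735 for NDUFA9 and 0.0568 for NDUFS6.

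Complex III passes electrons from coenzyme Q to cytochrome c. Its Rieske iron-sulfur protein, UQCRFS1 (ENSG00000169021, chromosome 19 from 29205321 to 29213541), was at 172, 172 and 188 CPM in si-NC and at 213, 215 and 218 CPM in si-METTL16. The log2 fold change was 0.28 ± 0.06, with an adjusted p of 0.00912 by edgeR. Named pseudogenes held 19.5% of the counts of UQCRFS1 and these copies together, and summing them gave an adjusted p of 0.00845 by edgeR. UQCRC1, a core protein facing the matrix, was at 191, 185 and 191 CPM in si-NC and at 209, 210 and 220 CPM in si-METTL16. The groups were apart, but the log2 fold change was only 0.17 with an adjusted p of 0.0348, and the call was lost without any of the 6 samples, with adjusted p from 0.0676 to 0.107.

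Of the 5 small accessory subunits of complex III, 2 were called lower and 0 higher. This is 40.0%, against 35.9% of all genes called in either direction and 17.5% called lower. UQCRB (ENSG00000156467), which lies near a coenzyme Q site, was at 219, 224 and 228 CPM in si-NC and at 145, 144 and 158 CPM in si-METTL16. All si-METTL16 samples were lower, the mean was 66.6% of the control, and the log2 fold change was -0.59 ± 0.06 with an adjusted p of 0.000484 by edgeR, the lowest adjusted p among the tested members. UQCR11 was at 82.7, 81.2 and 82.8 CPM in si-NC and at 59.7, 65.0 and 67.6 CPM in si-METTL16, with a log2 fold change of -0.36 ± 0.07 and an adjusted p of 0.00708. The counts of UQCRB and UQCR11 together were 0.836 ± 0.0168 (SD, n = 3) times those of UQCRFS1 and UQCRC1 in si-NC and 0.497 ± 0.0158 times in si-METTL16, a ratio formed after the fold changes were seen. The hinge protein gene UQCRH and its near-identical intronless copy UQCRHL were both counted, reads between them may be shared out in an uncertain way, and neither was called.

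Complex IV, cytochrome c oxidase, reduces oxygen. Of its 16 nuclear members, 10 are general subunits and 6 are isoforms of restricted tissues. COX5B (ENSG00000135940, chromosome 2 from 97646040 to 97648383), a zinc-binding subunit on the matrix side, was at 144, 149 and 144 CPM in si-NC and at 98.2, 107 and 107 CPM in si-METTL16. The groups were far apart relative to their spread, the mean was 71.5% of the control, and the log2 fold change was -0.48 ± 0.06 with an adjusted p of 0.00114 by edgeR. COX6C (ENSG00000164919), a subunit that crosses the membrane, was at 149, 166 and 160 CPM in si-NC and at 190, 206 and 197 CPM in si-METTL16, the opposite direction. Its log2 fold change was 0.32 ± 0.06, with an adjusted p of 0.00788. The ratio of COX6C counts to COX5B counts, formed after the fold changes were seen, was 1.09 ± 0.0454 (SD, n = 3) in si-NC and 1.90 ± 0.0481 in si-METTL16.

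COX6B1 and COX7B were called lower by a smaller margin. COX6B1, which faces the side where cytochrome c docks, had a log2 fold change of -0.24 and an adjusted p of 0.0210 by edgeR, and lost the call without si-NC replicate 2 or 3 or si-METTL16 replicate 1 or 3, with adjusted p from 0.0522 to 0.0816. COX7B also had a log2 fold change of -0.24, with an adjusted p of 0.0330, and lost the call without any of the 6 samples, with adjusted p from 0.0512 to 0.0853. NDUFA4, named for complex I but found with complex IV, was at 242, 231 and 219 CPM in si-NC and at 142, 228 and 167 CPM in si-METTL16. One si-METTL16 sample lay among the controls, and the adjusted p was 0.117, or 0.00724 without that sample, replicate 2.

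In each paralog set of complex IV, the general isoform was detected and the isoforms of restricted tissues were low or not detected. COX4I1 was at 86.0 ± 12.4 CPM (SD, n = 3) in si-NC and at 71.8 ± 4.33 CPM in si-METTL16, with an adjusted p of 0.111 by edgeR that became 0.0429 without si-NC replicate 1. COX4I2, the isoform known from lung and from hypoxia, had too few counts to be tested. COX6A2 and COX7A1, the heart and skeletal muscle isoforms, had 0 counts in all 6 samples, which allows a level of at most 0.192 CPM in the shallowest library. COX7B2 and COX8C, known from testis, were likewise not tested. COX6B2, also a testis isoform, was the only restricted isoform tested, at 1.26 CPM in si-NC and at 1.11 CPM in si-METTL16. Per length, it was at a mean of 0.147 FPKM over the 6 samples, against 58.7 FPKM for COX6B1 (FPKM is the count divided by the length of the gene model and by the library total). The gene models were 8.08 kb for COX6B2 and 1.68 kb for COX6B1, and COX6B1 was at a mean of 107 CPM in si-NC. The general isoforms COX6A1, COX7A2 and COX8A had log2 fold changes of -0.07, -0.03 and 0.07 and were not called. Per length, COX8A had the highest mean level of all members, at 484 FPKM over the 6 samples, followed by NDUFS5 at 421 FPKM and NDUFA1 at 280 FPKM. FPKM rests on the length of the gene model, here between 0.51 and 0.77 kb for these 3 genes. The order differs by CPM, which takes no account of length. ATP5F1B, with a model of 5.67 kb, was at a mean of 504 CPM in si-NC, against 240 CPM for COX8A.

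ATP synthase had the most members called lower. The enzyme has a catalytic head with a central stalk, a ring of c subunits that turns with the proton flow, a peripheral stalk that holds the head still, and further small membrane subunits. The head subunits ATP5F1A and ATP5F1B, which form the catalytic sites, were not called. ATP5F1A was at 310, 433 and 296 CPM in si-NC and at 261, 229 and 383 CPM in si-METTL16, with overlapping groups and a 95% interval of the log2 fold change from -0.77 to 0.26. ATP5F1B was at 486, 514 and 511 CPM in si-NC and at 468, 440 and 650 CPM in si-METTL16, and its interval ran from -0.29 to 0.37. In both genes si-METTL16 replicate 3 was the highest of its group. ATP5F1C, the central stalk subunit that turns within the head, was at 154, 156 and 158 CPM in si-NC and at 103, 127 and 123 CPM in si-METTL16. It was lower in all 3 samples, with a log2 fold change of -0.41 ± 0.09 and an adjusted p of 0.00972 by edgeR.

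All 3 genes for the c subunit lay below their control levels, and 2 were called. They encode the same mature protein with different import signals. ATP5MC1 was at 76.1, 84.6 and 88.5 CPM in si-NC and at 57.4, 64.2 and 64.3 CPM in si-METTL16, with a log2 fold change of -0.42 ± 0.08 and an adjusted p of 0.00804 by edgeR. ATP5MC3 was at 181, 209 and 201 CPM in si-NC and at 153, 157 and 171 CPM in si-METTL16, with a log2 fold change of -0.30 ± 0.07 and an adjusted p of 0.0191. ATP5MC2 was at 123, 115 and 122 CPM in si-NC and at 114, 94.6 and 93.4 CPM in si-METTL16. The groups of each gene did not overlap, but the adjusted p of ATP5MC2 was 0.0609 and became 0.0129 without si-METTL16 replicate 1. The ATP5MC3 call was lost without si-NC replicate 2 or 3 or si-METTL16 replicate 1 or 2, with adjusted p from 0.0554 to 0.0656.

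The peripheral stalk held members called in both directions. ATP5PB (ENSG00000116459, chromosome 1 from 111448864 to 111462773), the b subunit that spans from the membrane to the head, was at 86.8, 83.9 and 87.0 CPM in si-NC and at 118, 140 and 125 CPM in si-METTL16. All si-METTL16 samples were higher, the mean was 149% of the control, and the log2 fold change was 0.57 ± 0.08 with an adjusted p of 0.00150 by edgeR. ATP5PD (ENSG00000167863, chromosome 17 from 75038863 to 75046985), the d subunit bound to it in the stalk, was at 161, 158 and 152 CPM in si-NC and at 102, 115 and 108 CPM in si-METTL16. All si-METTL16 samples were lower, with a log2 fold change of -0.54 ± 0.06 and an adjusted p of 0.000910. ATP5PB had 0.548 ± 0.0226 (SD, n = 3) times the counts of ATP5PD in si-NC and 1.18 ± 0.0382 times in si-METTL16, and its values did not overlap between the groups; this ratio too was formed after the fold changes were seen. ATP5PD shares 340 exon bases with KCTD2 on the opposite strand, and ATP5PB shares 90 with WDR77.

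The promoters of this pair are shown because these stalk partners had opposite calls, both kept in every fit that left out a sample. They are the 250 bases before the RefSeq start, with motif matches in capitals as for complex II. ATP5PB is on the plus strand at chr1:111449214-111449463, and ATP5PD is on the minus strand at chr17:75046970-75047219.
ATP5PB: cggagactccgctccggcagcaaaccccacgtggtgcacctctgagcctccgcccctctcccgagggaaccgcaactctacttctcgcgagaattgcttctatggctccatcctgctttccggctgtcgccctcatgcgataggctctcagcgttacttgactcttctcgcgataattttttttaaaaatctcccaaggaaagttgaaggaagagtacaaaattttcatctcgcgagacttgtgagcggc
ATP5PD: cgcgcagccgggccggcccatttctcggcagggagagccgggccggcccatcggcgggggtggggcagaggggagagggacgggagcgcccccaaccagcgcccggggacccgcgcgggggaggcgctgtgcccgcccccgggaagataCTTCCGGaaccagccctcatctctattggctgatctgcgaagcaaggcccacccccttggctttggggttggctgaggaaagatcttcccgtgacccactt
ATP5PD held 1 ETS match at -101, and ATP5PB held none of the 3 motifs.

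Of the membrane subunits, ATP5MG was at 116, 123 and 131 CPM in si-NC and near 157 CPM in all 3 si-METTL16 samples, with a log2 fold change of 0.35 ± 0.06 and an adjusted p of 0.00475 by edgeR. ATP5ME was at 51.2, 62.5 and 47.0 CPM in si-NC and at 38, 42.9 and 40.7 CPM in si-METTL16. It was lower without overlap, with a log2 fold change of -0.40 and an adjusted p of 0.0350, but it kept the call in only 1 of the 6 fits that leave out a sample, the one without si-NC replicate 3. The remaining ATP synthase members called lower were ATP5MF, ATP5PF and ATP5F1E, with log2 fold changes of -0.36, -0.33 and -0.27. ATP5MF and ATP5F1E kept the call in 2 of the 6 fits that leave out a sample, and ATP5PF kept it in all 6 but shares exon sequence with GABPA on the opposite strand. ATP5IF1, the inhibitor that binds the head when ATP would be hydrolysed, was at 66.0 ± 6.82 CPM (SD, n = 3) in si-NC and at 57.7 ± 0.530 CPM in si-METTL16, with an adjusted p of 0.130.

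ATP5MF-PTCD1, which was singled out after its values were seen, is a read-through transcript of ATP5MF and its neighbour PTCD1. It had 17, 24 and 1 counts in si-NC and 297, 19 and 24 counts in si-METTL16. A single library, si-METTL16 replicate 1, stood far above the rest, and the adjusted p was 0.0999 by edgeR. It shares 2382 exon bases with PTCD1 and 166 with ATP5MF, so its counts depend on how reads were shared out.

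The counts of the members on which these comparisons turn are drawn by sample. In the plots of both anchor genes of complex II, UQCRB, COX5B, ATP5PD and NDUFB1 all si-METTL16 samples lie under all si-NC samples, and in those of SDHB, UQCRFS1, COX6C, ATP5PB and NDUFS4 they lie above.

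**Figure D3:**
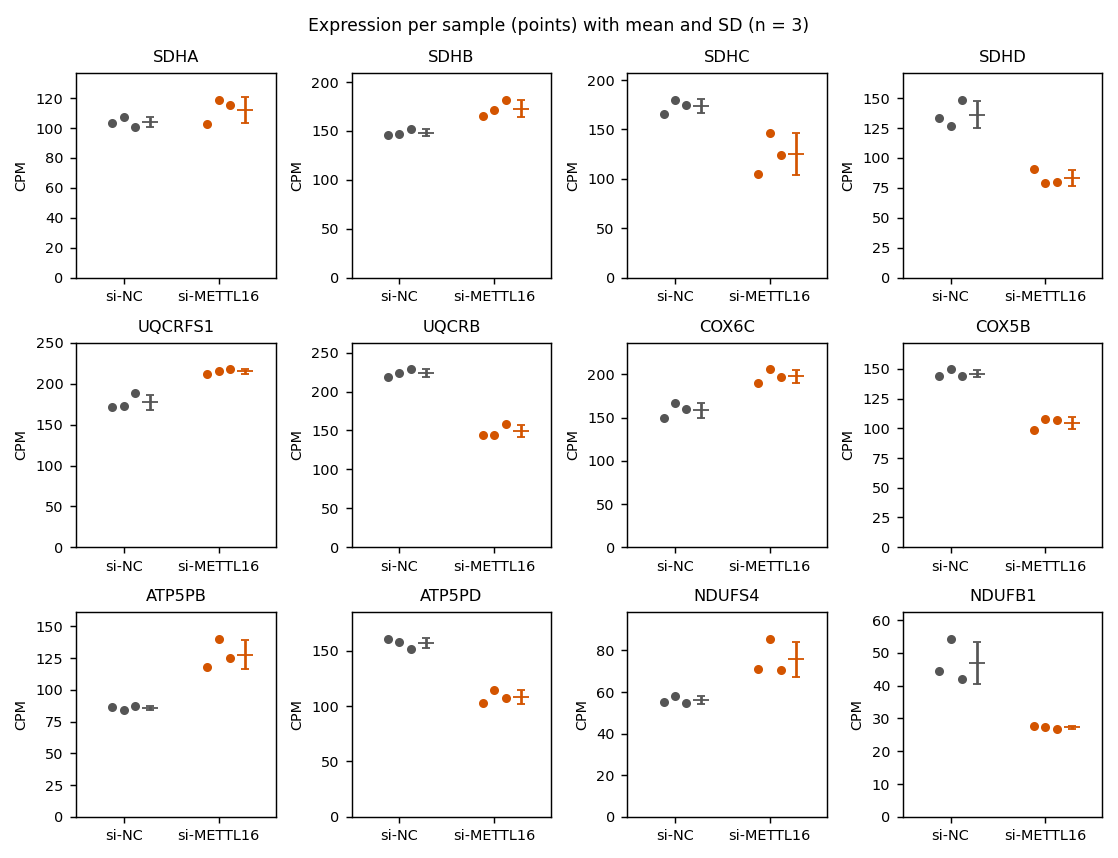
Level of 12 members (vertical axes, CPM after scaling, each starting at 0) in the 3 si-NC (grey) and 3 si-METTL16 (orange) samples as points, with the mean and SD beside them. The groups are apart in every panel except SDHA, where the si-METTL16 samples at 103, 119 and 115 CPM overlap the si-NC samples. The other panels show members picked from those called. The groups were apart in all 33 called members and in 50.9% of all genes tested.

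**Figure D4:**
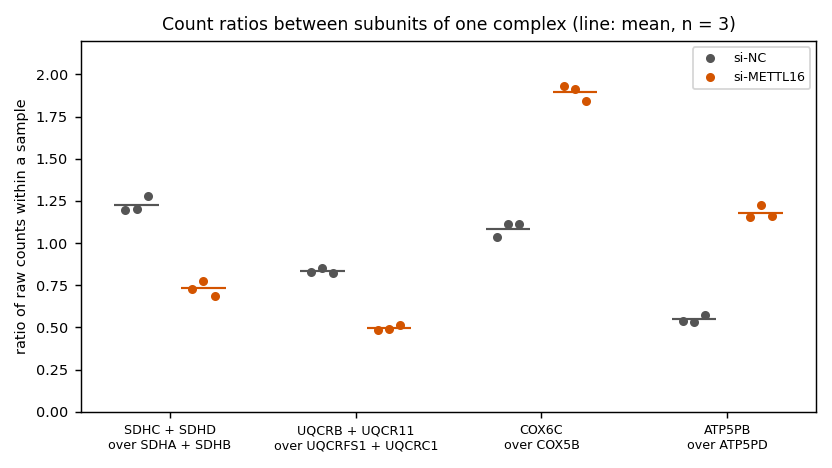
Ratio of raw counts between subunits of the same complex within each sample (vertical axis, no unit), with points for samples and lines for the mean of 3. The anchor-to-head ratio of complex II was 1.23 in si-NC and 0.731 in si-METTL16, and the ratio of ATP5PB to ATP5PD was 0.548 and 1.18.

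How firmly the members were called differed. Of the 11 called higher, 6 were called in all 6 fits that leave out a sample, with ATP5MG, ATP5PB, COX6C, NDUFS4 and UQCRFS1 among them. Of the 22 called lower, 10 were called in all 6: ATP5F1C, ATP5MC1, ATP5PD, ATP5PF, COX5B, NDUFA7, NDUFB1, SDHD, UQCR11 and UQCRB. In total 17 members share at least 100 exon bases with another gene whose counts reach 5% of their own, and 34 do with any gene that has counts. Without those 17, 28 of 64 tested members were called, 11 higher and 17 lower.

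The members are short transcripts. The median length of the canonical transcript was 758 bases for the tested members against 2987 for all genes tested. It was 1121 bases for the members called higher, 669.5 for those called lower and 757 for those not called, and the part of length in the calls was not tested. Across the 81 tested members, Spearman's rho of the log2 fold change was 0.179 with length and -0.0553 with GC content, against 0.0334 and -0.106 across 15010 genes; genes are not independent replicates, and all share the same 6 libraries.

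Genes around the complexes were called in both directions as well. Assembly factors insert cofactors and join subunits into the complexes. Of 60 tested assembly factors, 9 were called higher and 14 lower, or 38.3% against 35.9% of all genes tested. For complex I, with 2 higher and 5 lower of 20, NDUFAF8, which supports the factor that modifies NDUFS7, was at 25.9 ± 0.760 CPM (SD, n = 3) in si-NC and at 14.4 ± 0.992 CPM in si-METTL16, a log2 fold change of -0.84 with an adjusted p of 0.000707 by edgeR. TMEM70 had a log2 fold change of -0.66 and TMEM186 one of 0.59, and both were called. For complex II, with 1 higher and 1 lower of 4, SDHAF4, which helps to join SDHA to SDHB, had a log2 fold change of -0.68, and SDHAF1, which helps to load iron-sulfur clusters into SDHB, had one of 0.68. SDHAF1 kept its call in 4 of the 6 fits that leave out a sample. SDHAF2 and SDHAF3 were not called.

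For complex III, 2 of 6 factors were called higher and 0 lower, or 33.3% against 35.9% of all genes tested. They were UQCC1, which supports cytochrome b, at a log2 fold change of 0.49, and TTC19 at 0.31, and TTC19 kept its call in 3 of the 6 fits that leave out a sample. By unadjusted p under 0.05, edgeR counted 3 of the 6 factors, near the 46.3% of all genes. For complex IV, 4 of 26 were called higher and 7 lower, or 42.3% in either direction against 35.9% of all genes tested. COX20, a chaperone of the copper-binding subunit, was at 82.4 ± 3.39 CPM (SD, n = 3) in si-NC and at 48.5 ± 9.76 CPM in si-METTL16, a log2 fold change of -0.76 with an adjusted p of 0.00651. COA5 and CMC1 each had a log2 fold change of -0.69. Of 4 factors for ATP synthase, ATPAF1, which helps to assemble the head, was called lower at -0.39 and kept the call in 2 of the 6 fits that leave out a sample.

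Among the 8 electron carriers and quinone-reducing flavoproteins, 25.0% were called, against 35.9% of all genes. ETFB was called lower at -0.58 and ETFDH higher at 0.33. These 2 act in succession in passing electrons from fatty acid oxidation to coenzyme Q. In coenzyme Q synthesis, 2 of 13 genes were called higher and 0 lower, or 15.4% against 35.9% of all genes. They were PDSS1 at 0.58 and PDSS2 at 0.28, which together make the isoprenoid tail. At an unadjusted p under 0.05, edgeR counted 3 of the 13, against 46.3% of all genes. In the citric acid cycle, which supplies NADH and succinate, 3 of 14 were called higher and 0 lower, or 21.4% against 35.9% of all genes, with 7 at an unadjusted p under 0.05, against 46.3% of all genes. CS, citrate synthase, was at 146 ± 17.3 CPM (SD, n = 3) in si-NC and at 211 ± 13.9 CPM in si-METTL16, a log2 fold change of 0.53 with an adjusted p of 0.00518 by edgeR, and DLD was at 0.18. Leaving out a sample ended the calls of PDSS2 and DLD in all 6 fits, and those of ETFDH and PDSS1 in 5 of 6.

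Of the 7 adenine nucleotide and phosphate carriers and porins, 1 was called higher and 3 lower, or 57.1% against 35.9% of all genes. SLC25A4, a muscle and heart isoform of the ADP/ATP carrier, had a log2 fold change of -0.68 and SLC25A6, another isoform, one of -0.33, while the porin VDAC3 was at 0.39. COX7A2L, a paralog of COX7A2 that joins complexes III and IV into supercomplexes, was called lower at -0.70.

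Of the 14 transcriptional regulators of respiratory genes, 13 were tested. Of these, 2 were called higher and 4 lower, or 46.2% against 35.9% of all genes tested. PPARGC1A, the coactivator that drives mitochondrial gene expression, had 30, 18 and 56 counts in si-NC and 4, 6 and 7 in si-METTL16. The groups did not overlap, and the log2 fold change was -2.54 ± 0.51 with an adjusted p of 0.00786 by edgeR. The mean levels of 2.01 CPM (si-NC) and 0.339 CPM (si-METTL16) are low, and with limma on log2(FPKM + 1) without a filter PPARGC1A was not called, at a log2 fold change of -0.15 and an adjusted p of 0.115. ESRRA, an orphan nuclear receptor that works with it, was at 34.5 ± 2.33 CPM (SD, n = 3) in si-NC and at 19.2 ± 0.752 CPM in si-METTL16, a log2 fold change of -0.85 with an adjusted p of 0.000588. TFB1M, a methyltransferase of mitochondrial ribosomal RNA, was at -0.80. The regulators whose motifs were searched were not called, with log2 fold changes of 0.38 for NRF1, -0.17 for GABPA and 0.51 for YY1.

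Of the 13 respiratory genes of the mitochondrial genome, whose products join the nuclear subunits in complexes I, III and IV and ATP synthase, 1 was called higher and 8 lower. The share called in either direction was 69.2%, against 35.9% of all genes tested. The share called lower was 61.5%, against 17.5% of all genes, and these differences were not tested. MT-ATP8 had a log2 fold change of -0.44 and MT-ND3 one of -0.41. MT-ND6 was higher at 0.40, and it is encoded on the opposite strand to the other 12. The median log2 fold change of these genes was -0.19, against -0.11 for the nuclear members.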

How the data were processed

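Gene expression was measured by RNA-seq in 6 PANC-1 samples, 3 per group, with groups taken from the sample titles; the methods call them biological triplicates. Per the labels, total RNA was extracted with an Ultrapure RNA kit, although the design text names TRIzol, and libraries were made with the SMARTER mRNA-Seq kit. The submitters' processing notes name HISAT2 2.0.4, StringTie 1.3.0 and the GRCh38 build; the annotation release and the use of strand are not given in the sources used here. The authors deposited raw counts per gene, not normalized, and FPKM values, which are counts scaled by gene length and by the total count.

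The counts were scaled by TMM to CPM, filtered with filterByExpr (minimum count 10, minimum total count 15) and compared with edgeR 4.0.16 (glmQLFit and glmQLFTest) in R 4.3.3 over 15089 genes, with Benjamini-Hochberg adjustment at 0.05. The methods name limma, which was run as an alternative because counts were deposited. Standard errors were derived from each fold change together with its F statistic. A gene at 0 was given the level of 3 counts as its upper limit, 0.167 to 0.192 CPM by library, for counting error only. Replicates were distinct libraries: within groups, the chi-square of counts per degree of freedom was at least 15.9. Transcript lengths, GC content and exon overlaps came from GENCODE v44, in which 33 of the 87 members had the deposited coordinates, and promoters from the RefSeq table. The edgeR script was tested on simulated data.

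The members and all lists were chosen with earlier results of these data known. Genes named with values were, per complex and direction, up to 4 called members with the largest fold change, the catalytic list, the paralog sets of the c subunit and of complex IV, ATP5IF1 and NDUFA4, and the 3 members highest in FPKM; of the other lists, up to 3 called genes with the largest fold change. Further names that complete a count, and the motif regulators, were added after values were seen. Alternatives were DESeq2 size factors, upper-quartile scaling, no filter, at least 10 counts in every sample, the DESeq2 1.42.0 Wald test, limma 3.58.1 on voom values and on log2(FPKM + 1) or log2(FPKM + 0.1), a threshold of 0.01, a replicate block and leaving out each sample. Copies summed and members without overlapping genes were added after seeing the data. Tables were handled in Python 3.11.15. Values of some single genes are not reported here.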

Additional observations from a re-analysis of the deposited data

How the results depend on the processing

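With 3 samples per group, many member calls were close to the threshold. Leaving out each sample in turn gave 18 to 25 members called, 6 to 10 higher and 11 to 18 lower; 5 to 9 in complex I, 1 to 3 in complex II, 2 to 4 in complex IV; and 17 to 22 of the 45 tested members that were named. The lowest total, 18, came without si-NC replicate 3; 20 were called without si-METTL16 replicate 3 and 21 without si-NC replicate 2. The members' share called was under that of all genes in these 3 fits and without si-METTL16 replicate 1: 22.2% against 26.9%, 24.7% against 29.4%, 25.9% against 29.2% and 28.4% against 29.0%. At a threshold of 0.01, 15 members were called, 5 higher and 10 lower, with 3 in complex I, 1 in complex II, 2 in complex IV, 6 in ATP synthase, 14 named members and 23 genes of the other lists. With limma on log2(FPKM + 1) and no filter, 7 members were higher, 1 of complex II was called, and 30 genes of the other lists were. With no filter on low counts in edgeR, complex I had 7 called. Upper-quartile scaling gave a median of -0.14 and moved the median of all genes to -0.03. Over the fits that leave out a sample, the sign turned for 12 tested members, 0 of them called. Among those named by rule, ATP5F1B was at -0.15 (range -0.15 to 0.15 when leaving out a sample) and NDUFS7 at 0.0043 (-0.075 to 0.0043) without si-METTL16 replicate 3. COX7A2 was at 0.0054 (-0.056 to 0.0054) without si-METTL16 replicate 2, and NDUFS8 at 0.0091 (-0.26 to 0.0091) without si-NC replicate 3. NDUFS3, which is not among these 12, turned to -0.0022 with upper-quartile scaling. Of members called higher 7 of 11, and of those called lower 14 of 22, were called under all alternatives that left out no sample, the threshold of 0.01 aside. The causes of these shifts were not tested, beyond the fewer samples or the stricter limit.

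Both groups carry the same replicate numbers, but the deviations of same-numbered samples correlated at only 0.0253 to 0.0371, so the numbers were not taken to pair the samples; each sample did correlate best with its own number, a hint from the data and not the design. With the replicate number as a block, 29 members were called, 10 higher and 19 lower, and METTL16 stayed called lower under this and every other alternative run. With copies summed, a step added after seeing the data, 32 of 79 members were called. At this depth a member at 0 counts may still be expressed below the limit stated for it.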
